A study of Mus musculus with 12 samples.

Results

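To ask how the agonist rosiglitazone (Rosi) changed the mRNA pool of adipose stromal cells from obese mice, the total RNA libraries of the study, labelled input, were compared between Rosi and vehicle (Veh). They are 6 of the 12 deposited libraries and 5 of the 11 that are distinct, and the others are of polysome RNA. The cells were the stromal vascular fraction (SVF) of epididymal white fat, the non-adipocyte cells left after digestion of the tissue, from 12-week-old male ob/ob (Lepob/Lepob) mice, which lack leptin and become obese. In both groups they were cultured with 0.5 mM IBMX, 1 µM dexamethasone and 5 µg/mL insulin for 2 days and then with insulin alone for 2 days. The Rosi group also received 1 µM Rosi throughout and the Veh group DMSO, and both were collected on day 4 after a short pulse of cycloheximide, which the polysome arm required. Both groups are thus obese, leptin-deficient and under an adipogenic cocktail, and the comparison holds no lean or undifferentiated cells.

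Replicates 2 and 3 of input Veh were identical in all 117135 transcripts. They entered as a single library, and Veh (n = 2) was set against Rosi (n = 3). Depth was 17446517 and 20640926 estimated reads in Veh and from 21193514 to 24016101 in Rosi. The first principal component carried 43.2% of the variance and placed both Veh libraries below 0 and the 3 Rosi libraries above 0, with Rosi replicate 1 nearest to Veh, at 9.6 against 21.7 and 23.5. That library also stood apart on the second component (22.5%), at -26.5 against 7.9 and 8.6, and counts that rest on it are given below with and without it.

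PPARγ, the receptor that Rosi binds, is a nuclear receptor that pairs with RXR on DNA and is needed for fat cells to form. Its agonists act on genes of fatty acid uptake, triglyceride storage, lipid droplet coating, lipolysis and secreted fat-cell products, and are used in the clinic to improve insulin sensitivity. The cultures carried the RNA of several cell types. Markers of adipose progenitors were measured in all libraries, with Pdgfra at 90.8 and 75.0 CPM (read counts scaled for library size) in Veh and 76.3, 93.9 and 100.7 in Rosi. The contractile gene Acta2 stood at 5713.0 and 6045.6 CPM in Veh and at 5303.1 to 5505.7 in Rosi. Macrophage RNA was plentiful, with Lyz2, which encodes lysozyme, at 9616.4 and 10438.4 CPM in Veh, whereas lymphocyte and endothelial RNA was low. The T-cell genes Cd3e, Cd3d and Cd3g were at 0 in all 5 libraries while Il7r, of the same list, had 10.2 to 14.6 CPM. Pecam1 of endothelium did not pass 0.875 CPM while Cdh5 had 8.91 to 13 CPM. Crisp1, a product of the epididymis, was measured at 104.4 and 117.2 CPM in Veh and 69.5 to 91.0 CPM in Rosi, without overlap (adjusted p = 0.0613), whereas 9 of the 10 listed epididymal genes were at 0 in all 5 libraries. In bulk RNA, fewer cells of a type and less RNA per cell cannot be told apart.

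With all 5 libraries, more genes were called higher than lower in Rosi, an order that turned without Rosi replicate 1 (701 higher and 879 lower). Of 13603 genes tested, 182 (1.34%) were called (edgeR's quasi-likelihood test, Benjamini-Hochberg adjusted p below 0.05, log2 fold change beyond 0.2 in either direction), of which 154 (1.13%) were higher and 28 (0.206%) lower in Rosi. The Veh and Rosi libraries did not overlap for any of the 182, while 34.4% of all genes tested did not overlap. The raised genes had a median log2 fold change of 0.84, those lowered one of -0.59, and all genes tested one of 0.01. At an unadjusted p below 0.05 there were 1252 higher (9.2%) and 1060 lower (7.79%) genes, which are the shares to set beside such counts in the lists below. For counts of called members the shares to set beside them are 1.13% higher and 0.206% lower. These shares hold for total RNA. Most of the called changes of large fold were upward, since 67 raised genes passed a log2 fold change of 1 and 24 passed 4, while 5 lowered genes passed -1. The largest folds belonged to genes that were almost silent in Veh. Among raised genes under 1 CPM in Veh (32 genes) the median log2 fold change was 4.62, against 1.34 from 1 to 10 CPM (35 genes), 0.64 from 10 to 100 CPM (70 genes) and 0.49 at 100 CPM or more (17 genes).

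The raised genes together took 6787.9 and 6360.1 CPM in Veh and 10731.7, 11031.2 and 11240.6 CPM in Rosi, a gain of 4426.8 CPM between the means. The 10 largest gains in reads made up 42.2% of it and came from Fabp4, Pabpc1, Igfbp7, Scd1, Plin2, Cd36, Nid1, Cidec, Hp and Cpe. The 67 genes with a log2 fold change over 1 supplied 35.2% of the gain, so most of the added reads fell on genes already well expressed in Veh. The lowered genes fell from 12197.5 and 13156.0 CPM to between 8949.6 and 9653.1 CPM, and Lyz2 alone made up 77.0% of that loss.

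Genes that define the adipocyte formed the clearest group. Of 20 members measured on the adipocyte identity list, 14 were called higher (70.0%, against 1.13% of all genes tested). No value lay below 0 and the median log2 fold change was 3.10. Members such as Adig, Car3 and Slc2a4 had almost no reads in Veh and passed the count filter through Rosi, so they could only lie above 0. The list was chosen with earlier results of these data known. Cidec, which fuses lipid droplets into large ones (ENSMUSG00000030278, chr6:113424634-113435760 in mm10, minus strand), was at 0.692 and 0.598 CPM in Veh and at 162.4, 127.3 and 143.3 CPM in Rosi. This was a log2 fold change of 7.80 ± 0.20 (SE) with an adjusted p of 1.29e-10. Adipoq, which encodes the hormone adiponectin (chr16:23146536-23158028, plus strand), went from 0.635 and 0.149 CPM to 35, 29.1 and 31.3 CPM, a log2 fold change of 6.38 ± 0.28. Adig, a small adipocyte membrane protein, had 0 and 0.0996 CPM in Veh against 1.44 to 1.62 CPM in Rosi. Car3, a carbonic anhydrase abundant in fat, had 0 and 0.0498 CPM against 1.01 to 1.53 CPM. Fabp4, the fatty acid carrier of fat cells (chr3:10204088-10208576, minus strand), was already well expressed at 64.4 and 61.1 CPM and reached 417.0, 422.7 and 409.8 CPM, with 3 Rosi libraries that lay closer together than those of Cidec. On the same list the insulin-regulated glucose transporter Slc2a4 (0 and 0.0498 CPM in Veh, 0.330 to 0.713 CPM in Rosi, adjusted p = 0.0922), Plin4 (adjusted p = 0.0786) and lipoprotein lipase Lpl (adjusted p = 0.0699) did not pass the threshold. Lpl had 184.4 and 197.1 CPM in Veh and 380.0, 268.1 and 239.7 CPM in Rosi, and without Rosi replicate 1, the highest of the 3, its log2 fold change was 0.40 with an adjusted p of 0.00607. Lep, the leptin gene, was at 0 in all 5 libraries.

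**Figure D1:**
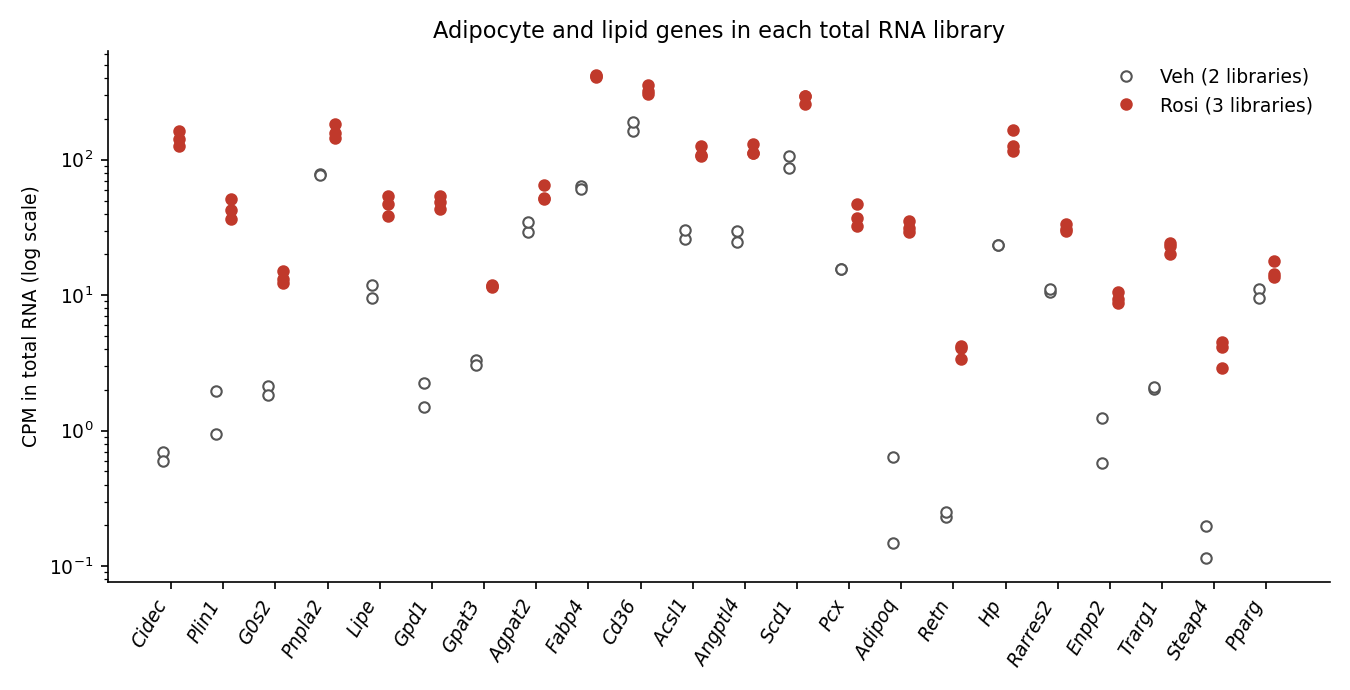
CPM of 22 genes in each total RNA library on a log axis, with open circles for the 2 Veh libraries and filled circles for the 3 Rosi libraries. Veh and Rosi points do not overlap for any gene shown, the gap is widest for Cidec (0.692 and 0.598 against 127.3 to 162.4 CPM), and Pparg, at the right, has the narrowest gap of those shown and was not called.

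The receptor and its partners gave 1 call. Pparg itself (chr6:115360951-115490399, plus strand) was at 11.1 and 9.56 CPM in Veh and 13.7, 14.4 and 17.8 CPM in Rosi, with no overlap, a log2 fold change of 0.57 ± 0.15 and an adjusted p of 0.0947. It passed the threshold without Rosi replicate 1 (log2 fold change 0.64, adjusted p = 0.0113). It did not without Rosi replicate 2 (adjusted p = 0.158) or Rosi replicate 3 (adjusted p = 0.349). The log2 fold change of Pparg was 0.68 without Veh replicate 1 and 0.47 without Veh replicate 2. Among 34 transcription factors and cofactors of adipogenesis, the median log2 fold change was 0.06 and 1 was called, Cebpb, an early factor of the program. It was at 73.9 and 81.1 CPM in Veh and 99.5 to 116.1 CPM in Rosi (adjusted p = 0.0426). Cebpb was not called without Rosi replicate 2 (adjusted p = 0.149) or Rosi replicate 3 (adjusted p = 0.0544). In 6 of the 17 alternative settings run it was called. Its log2 fold change was 0.40 without Veh replicate 1 and 0.53 without Veh replicate 2. The liver X receptor gene Nr1h3 had a log2 fold change of 0.70 and an adjusted p of 0.0702. Cebpa, a late partner of PPARγ, and Rxra had values of -0.04 and 0.05.

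Lipid droplet coats and the enzymes that release fat from droplets were raised side by side. Of 15 droplet proteins measured 6 were called higher (40.0%), and of 17 lipolysis genes 7 (41.2%), against 1.13% of all genes tested. The medians were 0.29 and 0.47 on the log2 scale. Plin1, the perilipin that gates lipolysis on the droplet (chr7:79720218-79732903, minus strand), rose from 1.96 and 0.946 CPM to 51.1, 36.3 and 42.9 CPM. Plin2, a coat found on droplets in many cell types, had 394.4 and 420.7 CPM in Veh and 601.5, 557.2 and 538.8 CPM in Rosi, a log2 fold change of 0.47 ± 0.09. Plin3 had a log2 fold change of -0.21 and was not called. Fitm2, which partitions triglyceride into droplets, stood at 22 and 20.4 CPM in Veh and 35.4 to 40.6 CPM in Rosi. The 3 lipases that strip a triglyceride in turn were all called, with Pnpla2, which takes the first acyl chain, at a log2 fold change of 1.06 (78.1 and 77.1 CPM in Veh, 183.5, 145.0 and 157.0 CPM in Rosi), Lipe, the hormone-sensitive lipase, at 2.13, and Mgll, which takes the last chain, at 0.56. G0s2, an inhibitor of the enzyme made by Pnpla2, went from 2.13 and 1.84 CPM to 15.2, 12.2 and 13.2 CPM. Of the genes upstream of the lipases, the β3-adrenergic receptor gene Adrb3 was called, at 1.44 and 1.05 CPM in Veh and 3.41 to 4.41 CPM in Rosi, though not without Veh replicate 2 (adjusted p = 0.13). Prkar2b, a regulatory subunit of protein kinase A, was called at a log2 fold change of 0.66, and the adenylyl cyclase gene Adcy6 was not, at 0.31 (adjusted p = 0.162). The co-activator Abhd5 had a value of 0.29 and an adjusted p of 0.175.

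Uptake, activation and esterification of fatty acids showed the same direction in part of each pathway. On the uptake and activation list 4 of 20 measured members were called higher (20.0%, against 1.13% of all genes tested), with a list median of 0.05. Cd36, the fatty acid translocase, had 162.1 and 190.6 CPM in Veh and 321.5, 354.4 and 304.5 CPM in Rosi. Acsl1, which activates long-chain fatty acids for storage, had 25.8 and 30.4 CPM in Veh and 106.9, 108.5 and 126.2 CPM in Rosi, whereas its relative Acsl4 lay below 0 at -0.49 (adjusted p = 0.0842). Angptl4, a secreted inhibitor of lipoprotein lipase, had 24.9 and 30.0 CPM in Veh and 111.2, 131.1 and 111.4 CPM in Rosi. Glycerolipid synthesis had 6 of 20 measured members called higher (30.0%) and none lower, with a median of 0.32. These were Gpd1, which makes glycerol 3-phosphate (2.25 and 1.49 CPM in Veh, 53.9, 43.3 and 48.7 CPM in Rosi), the acyltransferase genes Gpat3, Gpam and Agpat2 at log2 fold changes of 1.87, 0.74 and 0.81, the pyruvate carboxylase gene Pcx at 1.33, and the glycerol channel gene Aqp7. No read of Aqp7 was found in Veh, against 1.61 to 2.61 CPM in Rosi, which puts it at least 24.7-fold higher if Veh is set to a floor of 3 counts for the group. The last enzymes of the path, Dgat1 and Dgat2, had values of 0.42 and 0.59 and were not called. On the fatty acid synthesis list Scd1, the stearoyl-CoA desaturase, at 105.8 and 87.4 CPM in Veh and 293.8, 256.7 and 297.4 CPM in Rosi, was the 1 called gene among 22 measured, whose median was 0.09.

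PPARγ and RXR bind a repeat of the hexamer AGGTCA, in the same direction and with 1 base between the copies. RefSeq promoters (GRCm38.p6, from 250 bases before to 50 after a start site) were matched by symbol for 102 of the 154 raised and 21 of the 28 lowered genes. With at most 2 of the 12 hexamer bases differing, on either strand, a match was found in 6 of 122 promoters of raised genes (4.92%), 1 of 22 of lowered genes (4.55%), 362 of 13267 of all genes tested (2.73%) and 3.86% of all promoters in the table. The counts are small, and a match is a run of letters and not a measured site. Matches of raised genes that lay before the start lay in Gdf15, Aqp7 at each of its start sites, Cd36, Plin2 and 4931406C07Rik. The stretches of 120 bases below, read 5′ to 3′ on the strand of the gene (minus in each case), are shown as the places where the letters of the repeat were found before the start site of a named gene, and the capitals mark the match. Gdf15, a stress-related hormone of the TGF-β family (47.1 and 51.4 CPM in Veh, 73.8 to 78.9 CPM in Rosi), held the closest match, with 1 base differing, and the others had 2. The stretches are chr4:41047963-41048082 and chr4:41048137-41048256 for the start sites of Aqp7, chr5:17835897-17836016 for Cd36, chr4:86670190-86670309 for Plin2 and chr8:70632457-70632576 for Gdf15.
Aqp7, first: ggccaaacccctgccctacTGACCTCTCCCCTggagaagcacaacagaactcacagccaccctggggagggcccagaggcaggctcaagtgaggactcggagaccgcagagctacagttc
Aqp7, other start site: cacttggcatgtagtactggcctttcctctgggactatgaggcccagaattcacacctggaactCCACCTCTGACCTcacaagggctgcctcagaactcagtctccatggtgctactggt
Cd36: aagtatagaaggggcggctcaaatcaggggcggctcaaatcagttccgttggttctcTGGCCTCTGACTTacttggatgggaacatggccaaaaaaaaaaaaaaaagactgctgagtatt
Plin2: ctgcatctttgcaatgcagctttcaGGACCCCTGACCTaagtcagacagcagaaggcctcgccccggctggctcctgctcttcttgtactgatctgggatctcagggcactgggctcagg
Gdf15: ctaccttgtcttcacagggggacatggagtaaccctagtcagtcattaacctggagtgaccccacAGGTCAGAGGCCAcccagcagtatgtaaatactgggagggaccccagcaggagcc
Read in the direction of the repeat, the matches were AGGGGAGAGGTCA and AGGTCAGAGGTGG for Aqp7, AAGTCAGAGGCCA for Cd36, AGGTCAGGGGTCC for Plin2 and AGGTCAGAGGCCA for Gdf15.

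With all 5 libraries, calls among genes of fatty acid oxidation were few in number, though a larger share than over all genes tested. Of 25 mitochondrial genes measured 3 were called higher (12.0%, against 1.13% of all genes tested). The list median was 0.23 and 20 of 25 values lay above 0. At an unadjusted p below 0.05, 13 were higher and 1 lower, against 9.2% and 7.79% of all genes tested. Cpt1a and Cpt1b encode the carnitine palmitoyltransferases that admit long chains to mitochondria, and Cpt1b had 0.288 and 0 CPM in Veh against 1.36 to 1.62 CPM in Rosi while Cpt1a had 69.6 and 59.3 CPM against 88.1 to 106.1 CPM. Of 33 genes of peroxisomal oxidation 2 were called (6.06%), among them Acaa1b, a thiolase whose reads may be shared with its close copy Acaa1a. On that list 10 were higher and 2 lower at an unadjusted p below 0.05. These calls depended on the libraries used. Without Rosi replicate 1, 2 or 3 in turn, 8, 2 and 2 mitochondrial and 5, 1 and 1 peroxisomal genes were called higher. The mitochondrial median was 0.25 without Veh replicate 1 and 0.18 without Veh replicate 2, and the peroxisomal median 0.15 in both cases. Nuclear genes of oxidative phosphorylation did not rise with those of fatty acid oxidation. In edgeR none of 82 was called, 13 lower and 1 higher genes had an unadjusted p below 0.05 (7.79% and 9.2% of all genes tested), and DESeq2 called 1 lower. The 13 mitochondrial-encoded mRNAs had a median of 0.20 and 1 call, mt-Nd4l, which overlaps mt-Nd4 on the mitochondrial genome and is uncertain for that reason. Of these mRNAs 9 lay above 0 and 4 below. At an unadjusted p below 0.05, 7 were higher and 0 lower (9.2% and 7.79% of all genes tested).

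Secreted and membrane proteins of fat cells extended the group. Of 21 adipokines and secreted proteins measured 4 were called higher and 1, Saa3, lower (1.13% and 0.206% of all genes tested). Retn, which encodes resistin, had 0.231 and 0.249 CPM in Veh and 4.23, 4.11 and 3.38 CPM in Rosi, and Enpp2, the secreted enzyme autotaxin, had 0.577 and 1.24 CPM against 8.74, 9.45 and 10.6 CPM. Hp, which encodes the haemoglobin-binding protein haptoglobin, had 23.5 and 23.3 CPM in Veh and 164.6, 116.8 and 126.8 CPM in Rosi (log2 fold change 2.54 ± 0.15). Rarres2, which encodes chemerin, rose from 10.6 and 11.2 CPM to 29.6 to 33.6 CPM. Trarg1, a regulator of glucose transporter traffic, and Sort1, the sorting receptor sortilin, were the 2 of 28 insulin and glucose uptake genes called, at log2 fold changes of 3.45 and 0.66. The metalloreductase gene Steap4 and the microsomal glutathione transferase gene Mgst1 were the 2 of 30 genes of oxidant handling, at 4.55 and 0.78. The insulin and oxidant lists thus had 7.14% and 6.67% called higher. Of 14 thermogenic genes measured 4 were called higher (28.6%), namely Kcnk3 (a potassium channel), Slc36a2 (an amino acid carrier), Cpt1b and Adrb3. Ucp1, the uncoupling protein of brown fat, was too low to be tested, and Dio2 and Ckb had values of -0.96 and -0.36.

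The remaining genes of large fold had no list of their own. Lgals12, a galectin of fat cells, had no read in Veh and 1.57 to 2.84 CPM in Rosi, at least 27.6-fold higher. Cyp4b1, a cytochrome P450, went from 0.231 and 0.299 CPM to 1.92 to 2.95 CPM. Sntb1, a syntrophin, and B3galt2, a galactosyltransferase, had log2 fold changes of 4.83 and 4.56 from Veh values of at most 0.0996 CPM. Pdzd2 and Fam83a had values of 2.66 and 2.08. Arxes1 and Arxes2, near-identical genes that arose by a retrotransposed copy, both rose, at 2.93 and 2.06, but the share of reads between them is uncertain. The same holds for the prolactin family genes Prl2c3 and Prl2c2 at 2.09 and 1.35. The enzymes Ephx2 (epoxide hydrolase) and Cdo1 (cysteine dioxygenase) had values of 1.52 and 1.46, the melanocortin receptor accessory gene Mrap 1.83, and the adenylyl cyclase gene Adcy5 1.34.

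**Figure D2:**
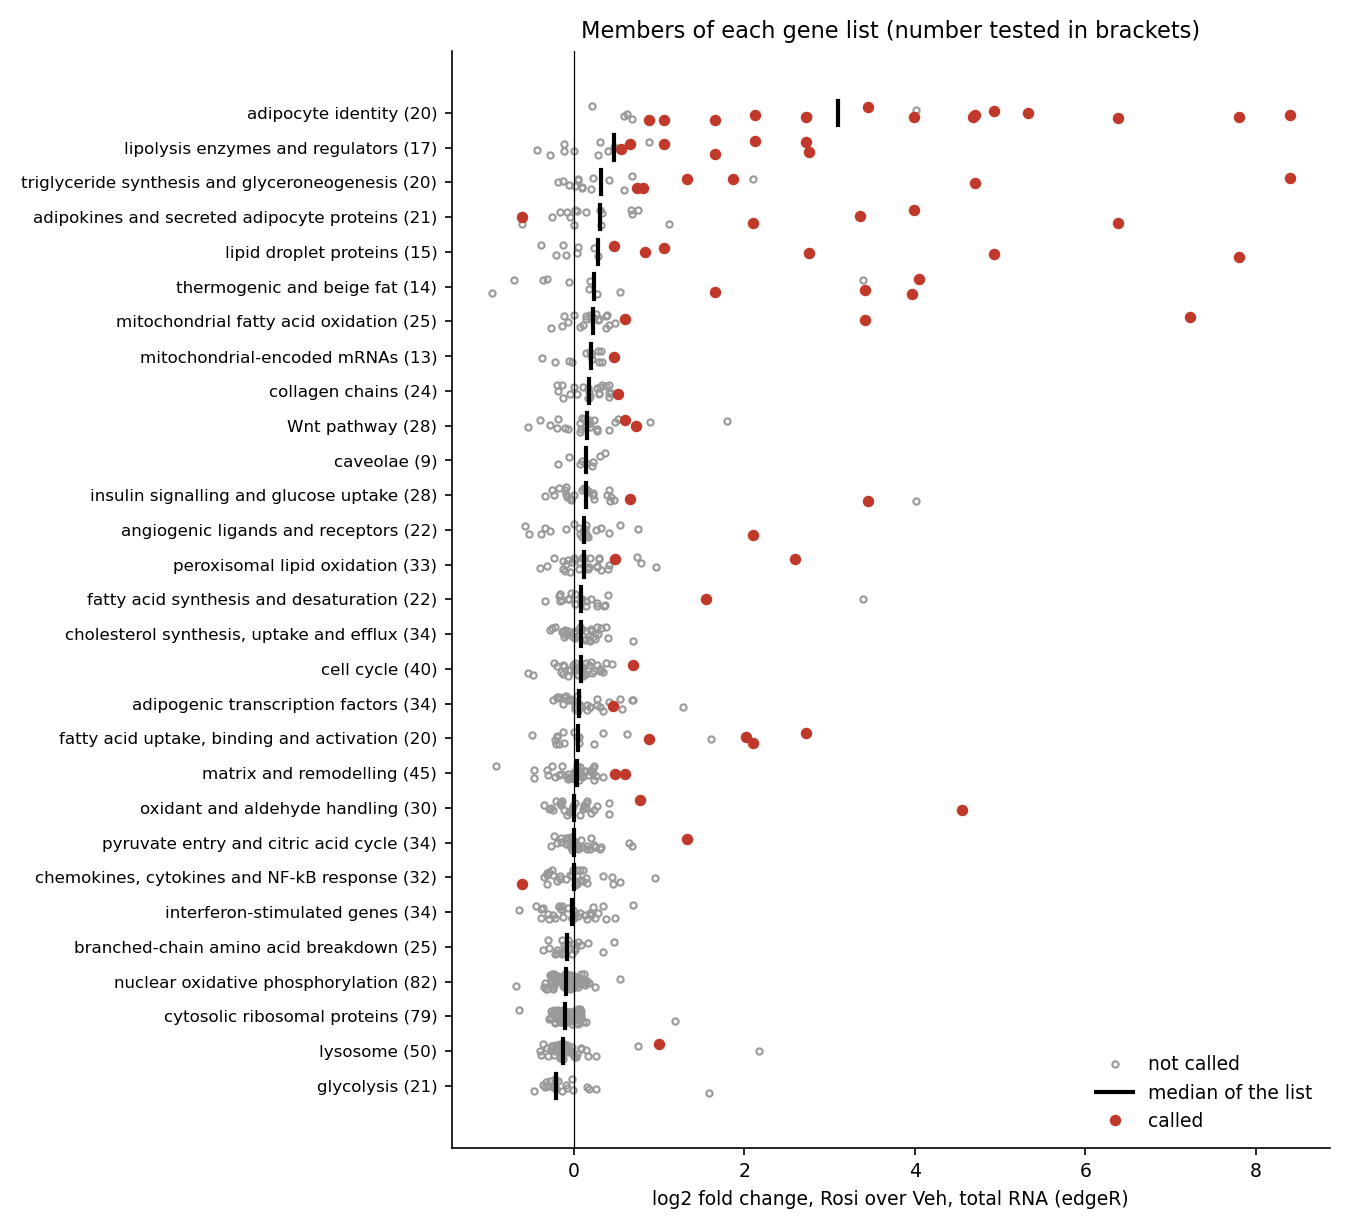
Log2 fold change of each measured member of 29 lists of pathways and gene patterns, with called members filled and the list median as a bar. The adipocyte identity list has a median of 3.10, lists of lipid storage and release lie between 0.29 and 0.47 with a tail of called members, and glycolysis lies lowest at -0.21 with no call by edgeR (4 by DESeq2). Values over 7 include genes without reads in Veh, whose fitted fold is not a bound.

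Smaller changes covered other parts of the cell. The basement membrane genes Nid1 and Nid2, which encode nidogens, and Col4a5, a chain of type IV collagen, were called among 45 matrix genes and 24 collagen chains. That was 4.44% and 4.17% of these lists, against 1.13% of all genes tested called higher. Nid1 had 302.4 and 269.1 CPM in Veh and 384.2, 456.5 and 459.1 CPM in Rosi (log2 fold change 0.60 ± 0.10), and Igfbp7, a secreted matrix-associated protein, had 473.6 and 435.1 CPM against 613.0, 709.1 and 696.7 CPM. The fibrillar collagens were not among the calls. Of 28 Wnt pathway genes the receptor genes Fzd1 and Fzd4 were called (7.14%), at 0.60 and 0.73. Pabpc1, the poly(A)-binding protein of the cytoplasm, had 766.8 and 631.8 CPM in Veh and 1000.2, 999.7 and 1003.9 CPM in Rosi. Cpe, a carboxypeptidase that trims prohormones, was at 201.1 and 187.3 CPM in Veh and 255.8 to 309.5 CPM in Rosi. Twist1, a mesenchymal transcription factor, Epas1, a hypoxia-inducible factor, and Egr1, an immediate early factor, had log2 fold changes of 0.82, 0.77 and 0.42. Rrm2, a subunit of ribonucleotide reductase, was the 1 called gene of 40 cell cycle genes (91.3 and 62.0 CPM in Veh, 105.1, 133.6 and 134.2 CPM in Rosi).

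Several metabolic groups gave no call in edgeR. None of 34 genes of cholesterol handling was called (unadjusted p below 0.05 for 5 higher and 1 lower, against 9.2% and 7.79% of all genes tested, DESeq2 also 0), and none of 25 of branched-chain amino acid breakdown (2 higher, 3 lower, DESeq2 also 0). None of 9 genes of caveolae was called (3 higher, DESeq2 also 0), and none of 34 interferon-stimulated genes (5 lower, DESeq2 also 0). Glycolysis had 17 of 21 values below 0 and a median of -0.21, with no call in edgeR, 9 lower at an unadjusted p under 0.05 and 4 called lower by DESeq2. Its most abundant member here, Pkm, the muscle-type pyruvate kinase, had 4654.9 and 5018.2 CPM in Veh and 4234.4, 3701.0 and 3614.2 CPM in Rosi (adjusted p = 0.0922). Of 79 cytosolic ribosomal protein genes 61 lay below 0 with a median of -0.10, none was called in edgeR or DESeq2, and 8 were lower at an unadjusted p under 0.05, near the 7.79% of all genes tested. Lysosomal genes had 39 of 50 values below 0 with a median of -0.13. At an unadjusted p under 0.05, 14 were lower and 3 higher (7.79% and 9.2% of all genes tested). The 1 call was upward, the acid phosphatase gene Acp2 at 26.1 and 26.1 CPM in Veh and 49.6 to 53.9 CPM in Rosi. In polysome RNA Acp2 had a log2 fold change of -1.11 (edgeR fit of all 4 groups, adjusted p = 0.542).

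The 28 lowered genes had a median log2 fold change of -0.59, and 5 of them passed -1. Lyz2 (chr10:117277331-117282321, minus strand) fell from 9616.4 and 10438.4 CPM to 7650.7, 7162.0 and 7218.4 CPM, a log2 fold change of -0.45 ± 0.08. Msr1, a scavenger receptor of macrophages, had 193.3 and 214.9 CPM in Veh and 163.1, 149.0 and 136.6 CPM in Rosi. Plek, pleckstrin of blood cells, had 441.2 and 508.4 CPM against 342.6, 314.4 and 293.3 CPM. The lectin receptor genes Clec5a and Clec7a, both of myeloid cells, and Tbxas1, the thromboxane synthase gene, had log2 fold changes of -0.58, -0.87 and -0.52. The acute phase gene Saa3 had 75.9 and 97.1 CPM in Veh and 48.9 to 62.5 CPM in Rosi, and Clu, which encodes the chaperone clusterin, had 264.9 and 197.9 CPM against 155.2 to 161.3 CPM. Bcl2a1b, a survival gene with near-identical copies, and Samd9l, an interferon-related gene, had values of -0.54 and -0.55. Genes without such a role were also present, among them Tln1 (talin, which links integrins to actin, 766.7 and 750.1 CPM in Veh and 621.4, 507.8 and 551.7 CPM in Rosi), Tubb3 (a tubulin), Tiparp (an ADP-ribosyltransferase), Pdcd10, Washc4, Gmppb and Rb1cc1. The Y-linked helicase gene Ddx3y and Inpp4b, a phosphatase of phosphoinositides, had values of -0.73 and -1.0, Cbr2, a carbonyl reductase, had -0.74, and Neurl3, a ubiquitin ligase, had -0.59. The largest loss by fold was of Ugt1a8, one of several transcripts that share exons at its locus, with 1.21 and 1.34 CPM in Veh and no read in Rosi, at least 29.1-fold lower. Psme2b, a copy of the proteasome activator gene Psme2, had 1.27 and 1.89 CPM against 0.143, 0.219 and 0 CPM. The reads of both are uncertain for that reason.

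Macrophage markers moved with these genes as a list. All 26 measured members had log2 fold changes below 0, with a median of -0.37. Of them 3 were called lower and 18 were lower at an unadjusted p under 0.05 (0.206% and 7.79% of all genes tested). Their summed level was 18578.8 and 21279.1 CPM in Veh and 16315.4, 14538.3 and 14531.7 CPM in Rosi, without overlap, and Lyz2 is itself a member. Adgre1, which encodes F4/80, had 424.4 and 461.5 CPM in Veh and 377.2 to 419.4 CPM in Rosi (adjusted p = 0.379), and the growth factor receptor gene Csf1r had 547.8 and 628.2 CPM against 421.9 to 496.4 CPM (adjusted p = 0.0853). Markers of lipid-associated macrophages overlapped between groups, with summed levels of 12153.2 and 13004.0 CPM in Veh and 11984.7 to 12527.0 CPM in Rosi. The 1 call was upward, Plin2, which like Lpl of this list is also on lists of lipid genes above. Of 15 members measured 5 lay above 0 and 10 below, among them Trem2 at -0.37 (adjusted p = 0.169). Progenitor markers had summed levels of 3850.9 and 4394.7 CPM in Veh and 3855.6 to 4361.3 CPM in Rosi, and endothelial markers 27.7 and 33.7 CPM in Veh and 29.3 to 32.2 CPM in Rosi. Markers of smooth muscle and pericytes summed to 13242.6 and 13551.0 CPM in Veh and 12528.2 to 12880.5 CPM in Rosi, also without overlap, and 1 of 13 was called, Mcam, which was higher. The part of a change in macrophage RNA in the lowered genes was not tested.

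**Figure D3:**
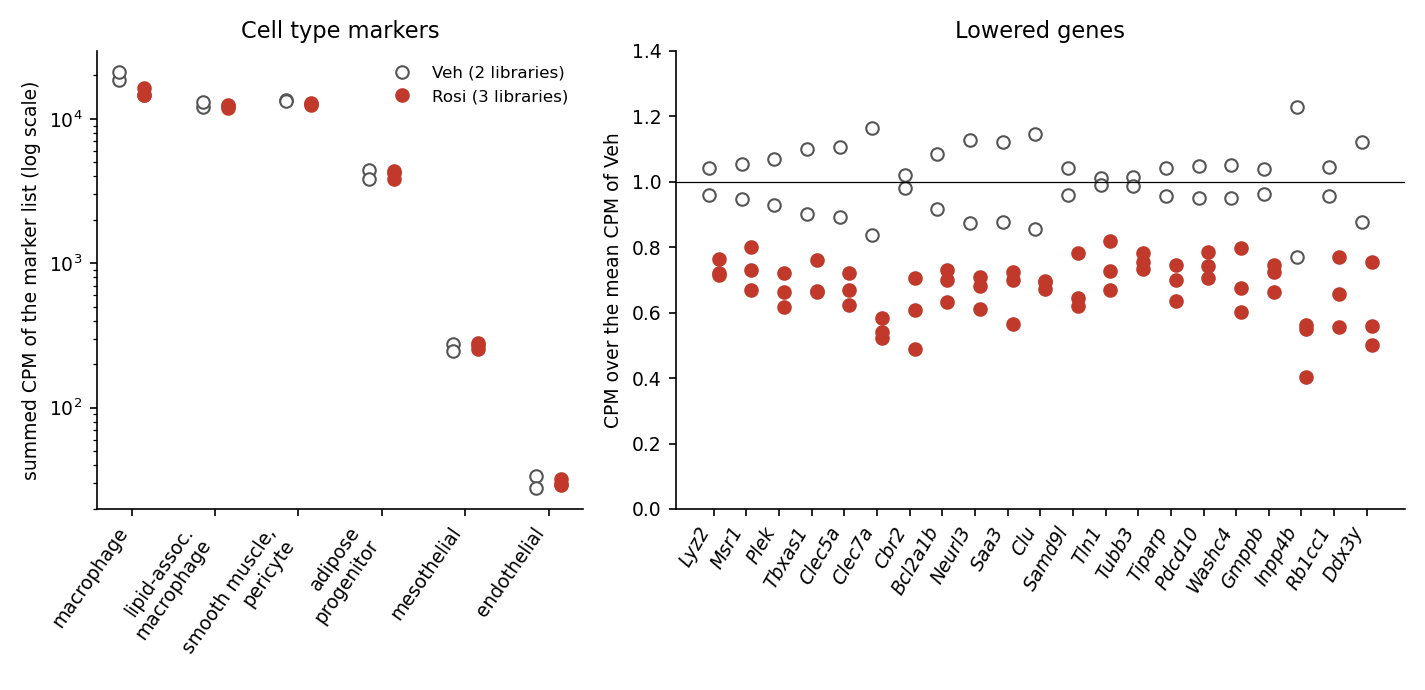
Left, summed CPM of 6 marker lists in each total RNA library on a log axis. Right, CPM of 21 lowered genes over the mean CPM of the 2 Veh libraries (line at 1). The macrophage list (18578.8 and 21279.1 CPM in Veh, 14531.7 to 16315.4 CPM in Rosi) has the widest gap, the smooth muscle list has a narrow one, the other 4 lists overlap, and the Rosi points of each lowered gene lie below its Veh points.

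Isoforms gave little more, since 3 of 30331 single transcripts (0.00989%) passed the same thresholds, of Fabp4, Gpd1 and Trarg1. Cidec was spread over several transcripts, of which Cidec-202 had 0.615 and 0 TPM (reads scaled for transcript length and library total) in Veh and 93.0, 81.2 and 94.5 TPM in Rosi, and Cidec-201 had 0 and 0.502 TPM against 48.1, 27.1 and 33.6 TPM. For Pparg, Pparg-202 had 7.63 and 3.86 TPM in Veh and 6.03, 2.56 and 7.07 TPM in Rosi, with overlap. Pparg-201 was listed at 0 in both Veh libraries and at 0.967, 3.86 and 2.20 TPM in Rosi (adjusted p = 0.323). Neither isoform was called, and the division of reads between transcripts that share exons is an estimate.

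The polysome libraries of the same design (n = 3 in each group) gave readings that the calls in total RNA had not used, in 1 fit of all 4 groups. They are not a separate experiment, since the paper describes the input as RNA of the samples prior to their fractionation. Both fractions may thus share differences between cultures, and the fit treated all libraries as independent. There, 106 of 14042 genes (0.755%) were called higher and 9 (0.0641%) lower in Rosi. Of the 154 genes raised in total RNA 72 were called higher in polysome RNA and 1, the ubiquitin ligase adaptor gene Spop, lower. The share differed with fold. Of the 67 genes over a log2 fold change of 1, 54 were called higher and 65 were above 0 in polysome RNA, with a median of 2.26. Of the 87 genes at 1 or less, 18 were called higher, 64 were above 0, and the median was 0.20. The median over all genes tested in both was 0.00. Twist1, Epas1 and Igfbp7, for example, had 0.04, -0.10 and 0.10 in polysome RNA, and Pabpc1 had -0.38 (adjusted p = 0.0564). Of the 28 lowered genes none was called lower in polysome RNA by edgeR, 22 were below 0, and the median was -0.14. At an unadjusted p below 0.05 in polysome RNA 5 were lower and 1 higher, against 352 and 446 of the 13597 genes tested in both. The difference itself, the interaction of fraction and treatment, called 0 of 14042 genes (0.0%) in edgeR at a log2 difference over 1, although 961 had an unadjusted p under 0.05, and DESeq2 called 1, Gm28437. Since the genes were chosen for their change in total RNA, their values in total RNA are larger by that choice, and the medians of both fractions are a description without a test.

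**Figure D4:**
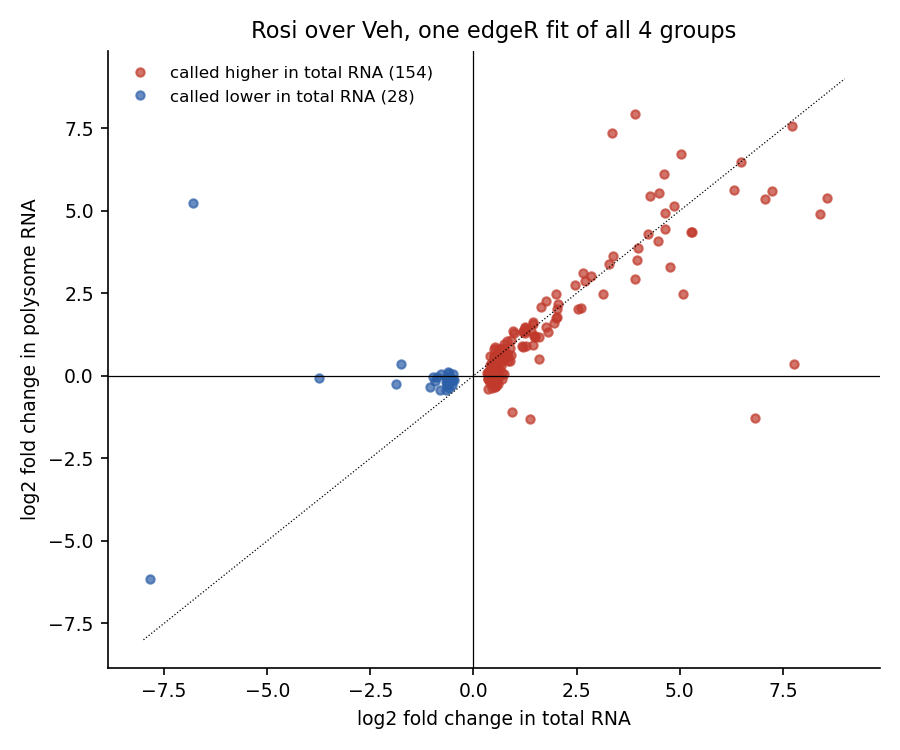
Log2 fold change of Rosi over Veh in total RNA against that in polysome RNA for the 182 genes called in total RNA, both from 1 fit, with a dotted line of equal change. Most raised genes of large fold lie near the line, while raised genes of small fold and most lowered genes lie close to 0 on the polysome axis. Values of genes without reads in a group depend on the fit and are not bounds.

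How many genes were called depended on which library entered. Without Rosi replicate 1 the counts were 701 higher (5.2% of 13484 tested) and 879 lower (6.52%), and they included all 154 and all 28 genes above. Without Veh replicate 2, which left 1 Veh library assumed to vary like the Rosi libraries, they were 63 and 3. Without Veh replicate 1, 56 genes were lower. Without Rosi replicate 2 the counts were 97 and 14, and without Rosi replicate 3 they were 115 and 18. The macrophage list had 14 members lower without Rosi replicate 1, the lysosome list 12, the nuclear oxidative phosphorylation list 12, the glycolysis list 9 and the ribosomal protein list 7. Without that library their medians moved little, from -0.37 to -0.41 for macrophages, and stayed at -0.13 for lysosome. They went from -0.09 to -0.14 for oxidative phosphorylation, from -0.21 to -0.24 for glycolysis and from -0.10 to -0.13 for ribosomal proteins. Some moved more with a Veh library left out. The macrophage median was -0.46 without Veh replicate 1 and -0.26 without Veh replicate 2. In the same order the values were -0.17 and -0.02 for oxidative phosphorylation and -0.20 and 0.02 for ribosomal proteins. They were -0.14 and -0.08 for lysosome and -0.18 in both cases for glycolysis. Of the raised genes over a log2 fold change of 1, 43 of 67 were called whichever library was left out, against 8 of 87 at 1 or less and 1 of 28 lowered genes, Ugt1a8. Rosi replicate 1 was the highest of the 3 Rosi libraries for 32 of the 67 and the lowest for 51 of the 87, and over 13597 genes it was the highest for 5173 and the lowest for 5253.

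**Figure D5:**
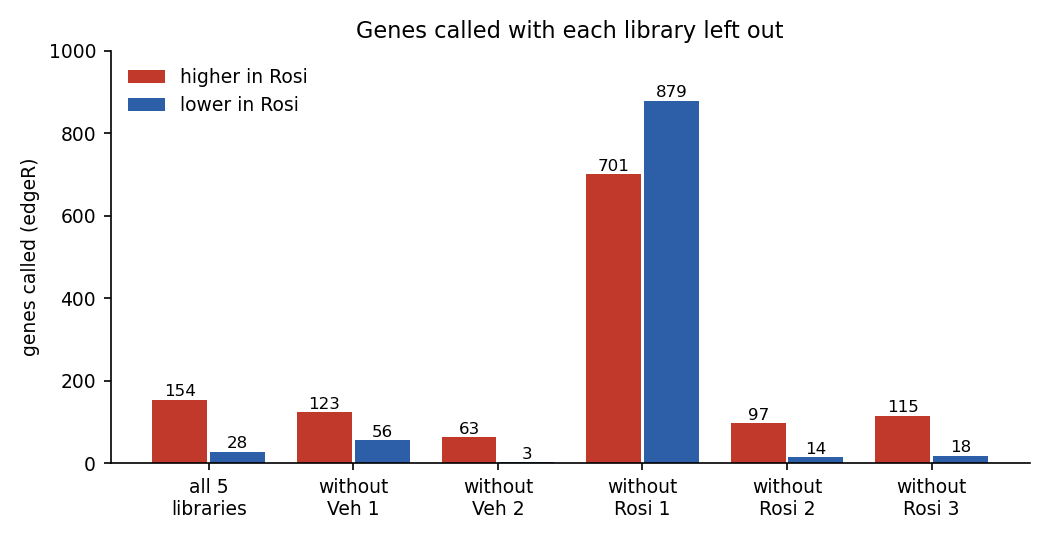
Number of genes called by edgeR with all 5 total RNA libraries and with each left out in turn. The counts range from 63 to 701 higher and from 3 to 879 lower, and both are greatest without Rosi replicate 1.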

How the data were processed

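Total (input) and polysome poly(A) RNA was sequenced on a HiSeq by the authors. Per the labels and the study's methods, bcl2fastq 2.17, FastQC and Salmon (version and strand setting not given in the sources used here) were used on mm10. The authors deposited, for each library and each of 117135 transcripts, the estimated count of reads and the TPM, both from Salmon. They also deposited the effective length, an "other" unit. Salmon divides reads between transcripts that share sequence, so values of near-identical genes, overlapping genes and antisense pairs are uncertain.

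Estimated counts were summed per gene by GENCODE M21, which matched 115973 transcripts (the other 1162 held 0.381 to 0.464% of reads), and rounded. CPM scales counts to the library total of the genes that passed the filter, multiplied by the TMM factor of the library. Genes were filtered with filterByExpr, scaled by TMM and tested with edgeR 4.0.16 (R 4.3.3) by the two-sided quasi-likelihood test on the input libraries alone, with Benjamini-Hochberg adjustment over all genes tested. The thresholds, adjusted p below 0.05 and log2 change beyond 0.2 in either direction (beyond 1 for the interaction), are those of the study. SE is the standard error of the log2 fold change. Polysome values came from 1 fit of all groups, where the libraries titled eWAT were taken as polysome libraries. Scripts were tested on simulated data. DESeq2 1.42.0, limma 3.58.1 on log2(TPM + 1) and other settings served as alternatives. The labels call the replicates biological but name no animals, so p-values measure only the spread between these libraries. Bounds cover counting error only.

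The genes named were Pparg, the 30 called genes of highest fold without overlap (average log2 CPM not below 0), each lowered gene with a name, the 10 largest gains and losses in CPM, per list up to 6 called and 2 uncalled genes with the lowest p, and cell type markers. Car3, Cebpa, Rxra, Plin3, Dgat2, Dio2, Mgll, Rarres2, Arxes2, Prl2c2, Ephx2, Cdo1, Mrap, Adcy5, Twist1, Epas1, Egr1, Gdf15, Spop and 4931406C07Rik were named after their values were seen. The comparison, thresholds and gene lists were chosen with earlier results of these data known. Some genes that the rule would name are not reported here.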

Additional observations from a re-analysis of the deposited data

How the results depend on the processing

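None of the 83 named genes called changed sign under the 17 alternatives run, while 7 named genes not called did (Pdgfra, Pdgfrb, Cd34, Csf3r, Il7r, Msln and Kit). Of 1399 values of the genes called, 1048 were still called and 351 were not. Of 81 named genes not called, 59 were called by at least 1 alternative. With all 5 libraries, 154 genes were higher and 28 lower. With each library left out the counts ran from 63 to 701 higher and from 3 to 879 lower. DESeq2 called 224 higher and 143 lower, and edgeR without a count filter 481 and 426. A filter of at least 10 reads gave 178 and 49. RLE factors gave 148 and 36, and upper quartile factors 161 and 40. Treating the library deposited under 2 numbers as 2 libraries gave 645 and 409. One fit of all 4 groups gave 70 and 7, limma on log2(TPM + 1) 52 and 5, limma on log2(TPM + 0.1) 63 and 1, and effective lengths as offsets 68 and 6. The cause was not tested in any of these. The median over all genes stayed between -0.06 and 0.06 on the log2 scale. Of the genes called, 34 higher and 0 lower were called in all 17.

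The main test did not pair libraries by number. The correlations of same-numbered deviations were -0.102 and -0.011. With 2 Veh libraries the deviations of one mirror those of the other, so these values cannot show whether the libraries were paired. The replicate block gave 147 higher and 40 lower with the duplicated library as number 2, and 105 and 18 as number 3. For the interaction, called for 0 genes, DESeq2 gave 1 lower, no filter 31 higher and 26 lower, and leaving out a library 0 to 6 higher and 0 to 3 lower, with 6 and 3 without polysome Veh replicate 1. For single transcripts, 3 higher and 0 lower, a filter of at least 10 reads gave 15 and 0 and the libraries as deposited 131 and 46. Promoter shares of raised, lowered and all tested genes were 0.82, 0.0 and 0.392% with at most 1 differing base, and 22.1, 27.3 and 20.2% with at most 3. With 2 Veh libraries the spread of Veh is poorly known.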
